A study of Homo sapiens with 4 samples.

Results

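The HOX genes were taken as the protein-coding genes of the deposited table whose symbol is HOXA, HOXB, HOXC or HOXD followed by a number. They are 39 of the 60048 genes in the table, and all of them enter the cluster sums. The fits and the counts of changes take the 31 with enough signal for a test. HOXA holds 11 of them, HOXB 10, HOXC 9 and HOXD 9. Nascent RNA, labelled with 5-ethynyl uridine (EU) for 20 min, was sequenced in 4 libraries of HCT116, a human colorectal carcinoma cell line. All 4 libraries carried the RAD21-mAC genotype, in which the cohesin subunit RAD21 bears an auxin-dependent degradation tag. The 2 control libraries came from cells given DMSO, and the 2 auxin libraries from cells exposed to 0.5 mM indole-3-acetic acid for 3 h, which the labels describe as depleting RAD21. The comparison asks how nascent transcription of the HOX genes stood after acute loss of cohesin, the ring complex that extrudes and holds chromatin loops. The labels do not say whether the line is a single clone, which ubiquitin ligase component was introduced with the tag, or whether replicates were separate cultures, so p-values measure only the spread between these libraries.

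HOX genes encode homeodomain transcription factors that give cells their position along the body axis. Each cluster lies as a row of genes on one strand, and the order of the genes follows the order of their expression along the axis: low-numbered (anterior) genes at the 3′ end of the cluster, high-numbered (posterior) genes at the 5′ end. HOX proteins bind DNA with cofactors of the TALE homeodomain class, PBX, MEIS and PKNOX. Polycomb proteins keep silent HOX genes shut, Trithorax proteins keep active ones open, and retinoic acid switches on the anterior end first. Cohesin and CTCF fold the clusters into loops that part active from silent genes, and the gut keeps a regional HOX pattern in adult epithelium.

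Values are a scaled signal per gene: the deposited signal, put on a common level between libraries by the trimmed mean of log ratios. Changes are therefore relative to the bulk of genes, and a shift shared by most genes would not show. The unit is not a read count, and levels of different genes are compared only per kb of gene span. In hg38, HOXA2 to HOXA13 span chr7:27100354-27200091 on the minus strand, the HOXB genes chr17:48528526-48728750 on the minus strand, HOXC chr12:53938831-54055327 on the plus strand and HOXD chr2:176092721-176190907 on the plus strand. The spans include introns, and the signal takes in both strands: in 100% of 9957 pairs in which one gene lay inside another on the opposite strand, the outer gene was at least as high in all 4 libraries. Overlapping genes therefore share signal, and an antisense RNA cannot be told apart from the HOX gene it overlaps. Of the 39 HOX genes, 29 overlap another gene in the table and 12 overlap another HOX gene.

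Of the 39 HOX genes, 20 have an entry among the RefSeq promoters (GRCh38.p14). Of the 8 HOX genes with an unadjusted p under 0.05 given further on, 3 are among these, and their 250 bases before the RefSeq start are shown because they stand for both directions: HOXA9 and HOXD8 had the higher signal in auxin, and HOXA11 the lower. They lie at chr7:27165538-27165787 on the minus strand (HOXA9), chr7:27185233-27185482 on the minus strand (HOXA11) and chr2:176129455-176129704 on the plus strand (HOXD8). Capitals mark matches, on either strand, to the TATA box TATAAA, the CCAAT box CCAAT, the GC box GGGCGG or the core of the CTCF motif.
HOXA9: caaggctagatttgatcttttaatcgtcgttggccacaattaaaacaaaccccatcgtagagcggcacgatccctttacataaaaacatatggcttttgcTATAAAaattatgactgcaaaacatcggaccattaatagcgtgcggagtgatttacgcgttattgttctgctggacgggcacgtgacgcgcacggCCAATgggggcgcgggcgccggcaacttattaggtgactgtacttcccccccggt
HOXA11: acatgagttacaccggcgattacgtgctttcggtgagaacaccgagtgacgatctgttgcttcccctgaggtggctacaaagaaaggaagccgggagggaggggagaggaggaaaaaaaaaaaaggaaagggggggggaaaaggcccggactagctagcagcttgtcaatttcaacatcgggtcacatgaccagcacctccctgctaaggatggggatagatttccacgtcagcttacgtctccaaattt
HOXD8: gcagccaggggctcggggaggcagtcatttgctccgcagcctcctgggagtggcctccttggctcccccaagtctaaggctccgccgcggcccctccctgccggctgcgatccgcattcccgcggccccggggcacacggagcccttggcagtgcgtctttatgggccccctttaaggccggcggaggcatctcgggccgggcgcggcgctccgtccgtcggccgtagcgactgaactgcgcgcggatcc
HOXA9 held 1 TATAAA and 1 CCAAT, and HOXA11 and HOXD8 held no match to any of the 4. Over the same window of 35116 RefSeq promoters, 10.7% held TATAAA, 32.0% CCAAT, 42.6% GGGCGG and 0.427% the CTCF core. The dinucleotide CG occurred 28 times in the HOXD8 window, 20 times in that of HOXA9 and 11 times in that of HOXA11, against a median of 11 over all promoters. A match is a description of the letters and not a site in use.

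The clusters also hold microRNA genes, and the mature products are shown because those from different clusters share a seed, the bases 2 to 8 set in capitals. The sequences are RefSeq's.
hsa-miR-10a-5p (HOXB cluster): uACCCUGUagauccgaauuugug
hsa-miR-196a-5p (HOXB and HOXC clusters): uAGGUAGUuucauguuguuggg
hsa-miR-196b-5p (HOXA cluster): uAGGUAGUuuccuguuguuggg
The miR-196 products of the HOXA, HOXB and HOXC clusters share the seed AGGUAGU, and miR-10a carries ACCCUGU. MicroRNAs of the miR-196 family are known to pair with HOX messages. Of the 6 listed microRNA genes, 3 reached the level needed for a test. MIR196A1, which lies inside HOXB7, stood at 125 and 88.0 in the control libraries and 99.95 and 93.2 in the auxin libraries. MIR196B, between HOXA9 and HOXA10, stood at 95.8 and 103 in control and 136 and 83.1 in auxin. MIR10A, inside HOXB3, stood at 11.9 and 19.4 against 7.14 and 12.4. The groups overlapped for all 3, and the primary transcripts measured here are not the mature forms.

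Some facts on the libraries bear on the values. RAD21 itself stood at 6172 ± 1439 in control and 6079 ± 262 in auxin (SD, n = 2 per group); auxin acts on the tagged protein, so its RNA does not check the labels. The HOX genes together held between 0.0535% and 0.0742% of the deposited signal, and 31 of the 39 reached the level needed for a test. Of markers of colorectal epithelium, 12 of 12 were tested and none passed the threshold; their summed signal was 59547 and 65754 in control and 58751 and 60845 in auxin, with KRT20 and CDX1 under 50 in all 4 libraries. Blood markers summed to between 157 and 276, endothelial markers to between 728 and 942 and fibroblast and muscle markers to between 1027 and 1544, with HBB listed at 0 in 1 control and 1 auxin library; none of these passed. Neural markers summed to 13686 and 11471 in control and 17289 and 17706 in auxin, nearly all of it TUBB3, which rose by 0.65 ± 0.12 (log2, SE; limma adjusted p = 0.0413), and SOX10. The part of these markers in the HOX values was not tested.

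In the control libraries the HOXB cluster was transcribed most. Per kb of span, the control signal of HOXB6 was 1201, above 99.0% of tested protein-coding genes, whose median was 62.9. HOXB8 (790), HOXB4 (679), HOXA9 (664) and HOXB5 (634) followed, at the 96.0th to 97.5th percentile of those genes. HOXB7 (419), HOXC9 (415), HOXB9 (389), HOXB3 (329) and HOXA10 (326) came next. At the other end, HOXD1, HOXD9 to HOXD13, HOXB1 and HOXC12 were 8 genes too low to be tested: their scaled signal was at most 8.02 in any library, and HOXB1 was listed at 0 in 3 of the 4 libraries. In HOXD, HOXD8 was at 62.9 per kb in control, HOXD4 at 14.4 and HOXD3 at 1.25.

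**Figure D1:**
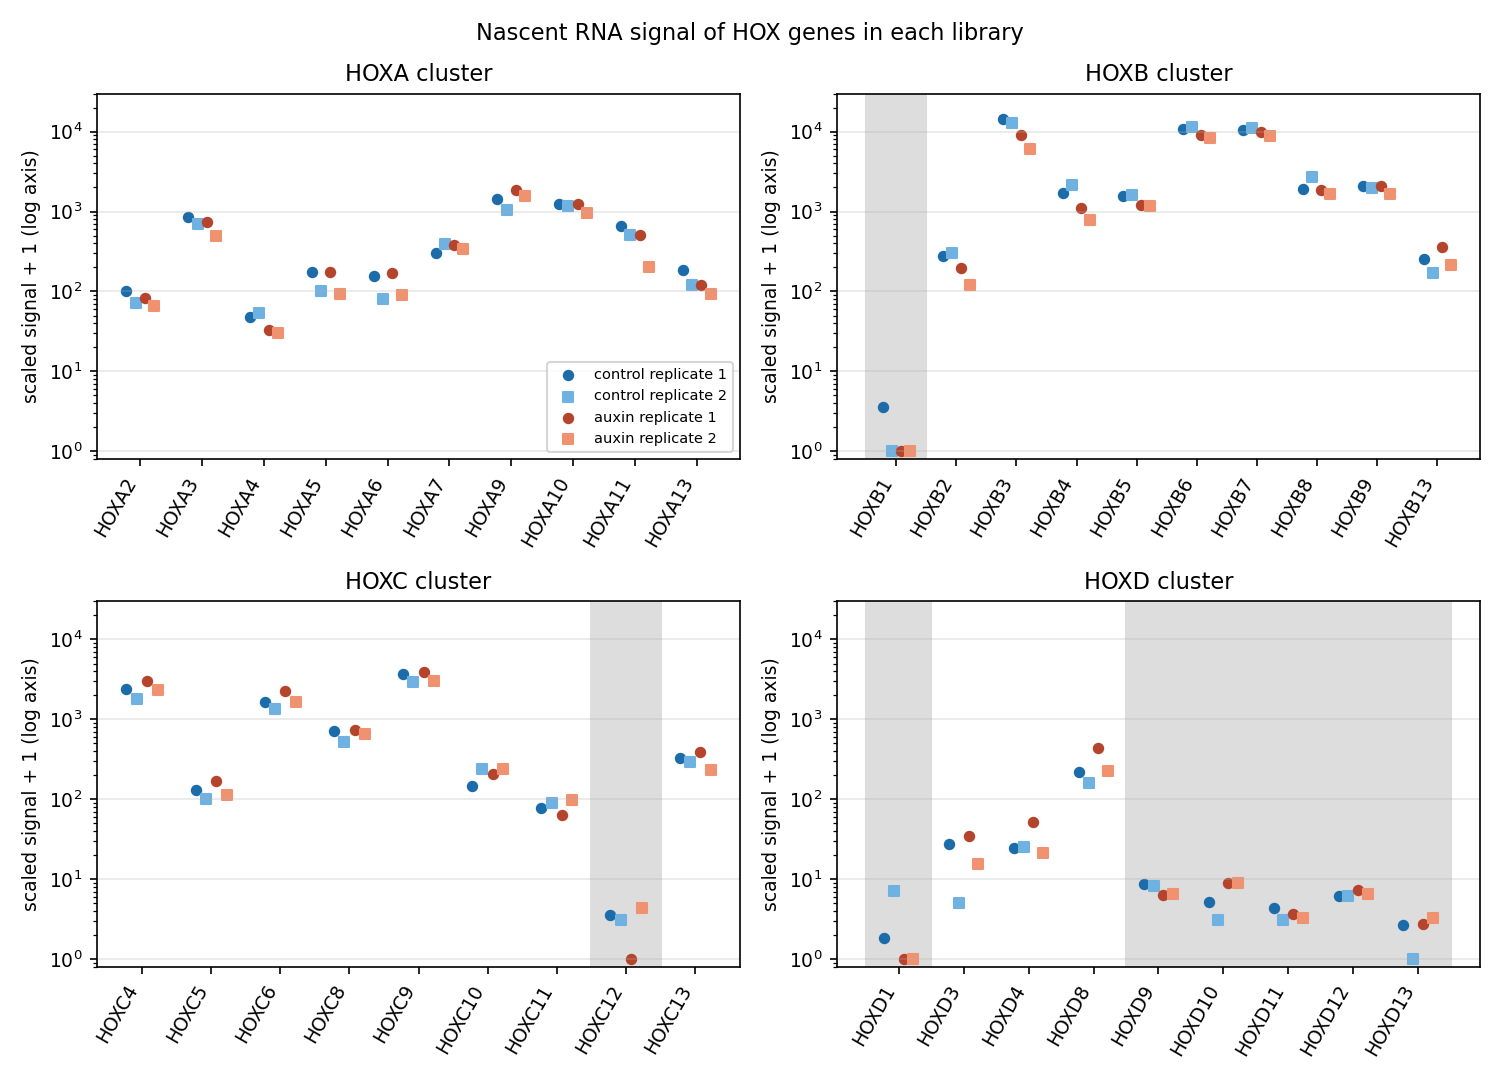
Scaled signal + 1 (log axis) of the HOX genes reported here in each of the 4 libraries, in one panel per cluster with the genes ordered by number and those too low to be tested shaded grey; blue marks are control libraries and red marks auxin libraries, circles replicate 1 and squares replicate 2. The signal is over the whole span, so heights of different genes are not compared; within a gene, HOXB3 runs from 14200 and 12998 in control to 9030 and 6018 in auxin.

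With auxin, the summed signal of the HOXB genes was 72.0% of control, with both auxin libraries (34680 and 28609) below both control libraries (43340 and 44577). HOXA stood at 99.1% of control, with 5210 and 4261 in control and 5393 and 3994 in auxin. HOXC stood at 116%, with 9218 and 7268 against 10781 and 8312. HOXD stood at 165%, with 290 and 212 against 546 and 283, and HOXD8 made up most of that sum in each group. In these last 3 clusters the groups overlapped. Sums count the signal of overlapping members more than once. In bulk RNA, fewer cells transcribing a gene and less RNA per cell cannot be told apart.

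No HOX gene passed the threshold of an adjusted p under 0.05 with limma over the 39464 genes tested, a threshold that 0.732% of all tested genes passed (131 higher and 158 lower). At an unadjusted limma p under 0.05 there were 8 of 31, against 10.2% of all tested genes: HOXA9 and HOXD8 were higher in auxin, and HOXA11, HOXB2, HOXB3, HOXB4, HOXB5 and HOXB6 lower. Both auxin libraries lay below both control libraries in 10 of 31, against 19.6% of all tested genes, and above in 3 of 31, against 18.6%. Of the 10 below, 7 are the neighbouring genes HOXB2 to HOXB8, and the others are HOXA4, HOXA11 and HOXA13. In these counts the HOXB genes are not separate measurements, since HOXB4 lies inside HOXB3 and HOXB8 inside HOXB7. Further, HOXB3 to HOXB6 all overlap HOXB-AS3, and HOXB2 and HOXB3 both overlap HOXB-AS1. The 3 above include HOXA9 and HOXD8. The median log2 fold change was −0.05 over the 31 tested HOX genes and 0.01 over all tested genes, with 14 HOX values above 0 and 17 below.

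The count of 0 depended on the fit. With the replicate number as a block, some HOX genes passed, as did 1944 of all tested genes higher in auxin and 2329 lower. The closing section gives that fit and why it is not the reported result. The sizes of the changes rest on which libraries were used. With each library left out in turn, log2 changes ranged from −1.51 to −0.19 for HOXA11 and −1.28 to −0.57 for HOXB2. HOXB3 ranged from −1.17 to −0.59 and HOXB4 from −1.29 to −0.80. On the scaled signal, auxin replicate 2 was the lowest of the 4 libraries in 17 of the 31 tested HOX genes, and auxin replicate 1 the highest in 14. Counts of this kind were not taken over all tested genes. They also depend on the scaling, which divided the auxin libraries by 0.816 and 1.21. Within groups, the median log2 difference of replicate 2 from replicate 1 over the 31 HOX genes was −0.28 in control and −0.39 in auxin, against −0.00 and 0.01 over the 29158 tested genes with a mean signal of at least 50. The replicate 2 libraries were thus lower at the median of the HOX genes in both groups, although control replicate 2 was the higher control for HOXB2 and for HOXB4 to HOXB8. The part of this in the comparison was not tested.

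**Figure D2:**
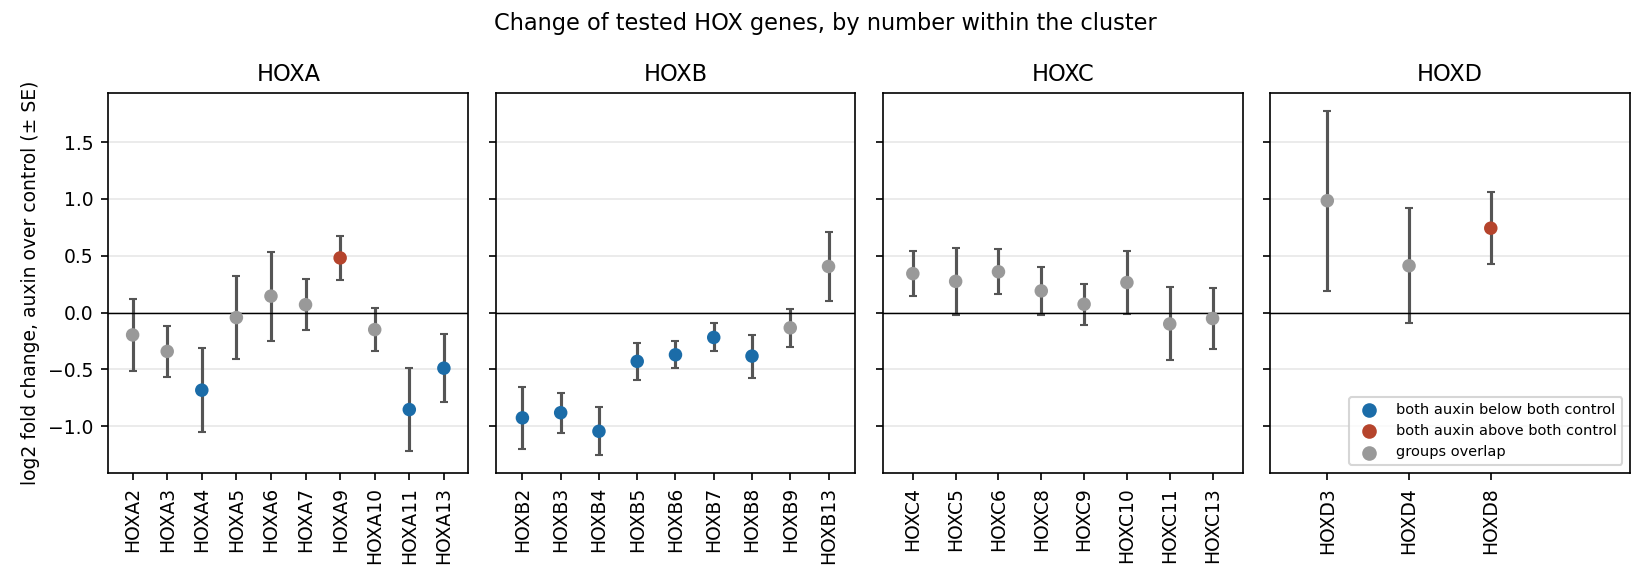
Log2 fold change of auxin over control for the tested HOX genes reported here, with the SE, in one panel per cluster and by the gene's number, so that anterior genes are on the left; blue points have both auxin libraries below both controls, red points above, and grey points overlap. HOXB2, HOXB3 and HOXB4 lie lowest in their panel, between −0.88 and −1.05, and the others follow at −0.43, −0.37, −0.22, −0.38, −0.13 and 0.41 for HOXB5, HOXB6, HOXB7, HOXB8, HOXB9 and HOXB13.

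Among the tested HOXB genes the auxin values, as a share of control, were lowest at the anterior end. In the order of their numbers, HOXB2, HOXB3 and HOXB4 were at 54.0%, 55.3% and 48.8% of control. HOXB5, HOXB6, HOXB7 and HOXB8 followed at 74.2%, 77.3%, 86.0% and 75.7%, and HOXB9 was at 91.6%. HOXB13, set off from the others by a long gap, was at 134%. The values did not climb at every gene, since HOXB4 and HOXB8 were each lower than the gene numbered before them. No test of a trend along the cluster was run, and HOXB3 and HOXB4, and HOXB7, HOXB8 and HOXB9, share signal. HOXB2 and HOXB3 also share signal with HOXB-AS1, and HOXB3 to HOXB6 with HOXB-AS3. HOXB1, the most anterior gene, was too low to be tested.

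**Figure D3:**
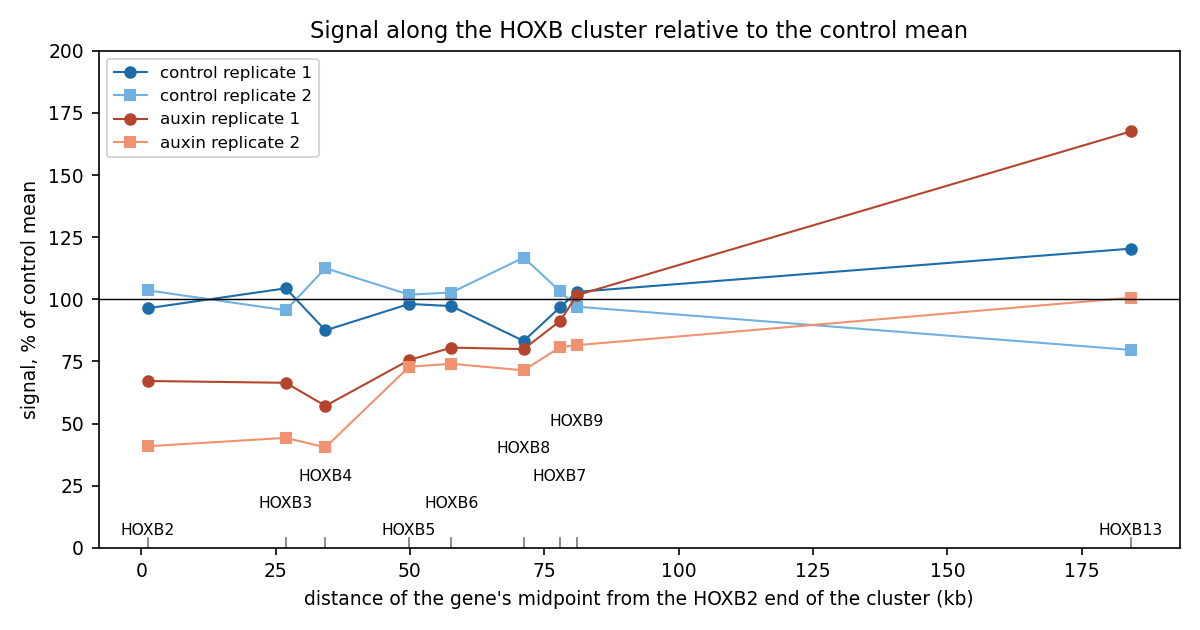
Scaled signal of the 9 tested HOXB genes in each library as a percent of the gene's control mean, against the distance (kb) of the gene's midpoint from the HOXB2 end of the cluster; one line per library. Both auxin lines lie below both control lines from HOXB2 to HOXB8, with auxin means from 48.8% to 86.0% of control, and the lines cross at HOXB9 and HOXB13.

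Among the anterior HOXB genes, HOXB2, a gene of hindbrain patterning, stood at 278 and 299 in the control libraries and at 194 and 118 in the auxin libraries. HOXB3, the longest HOXB gene in the table at 41.4 kb, stood at 14200 and 12998 in control and 9030 and 6018 in auxin. Both auxin libraries were well under both controls in each gene, and the 2 auxin libraries differed from each other by more than the 2 controls did. The log2 change was −0.93 ± 0.28 (SE) for HOXB2 (limma adjusted p = 0.210) and −0.88 ± 0.18 for HOXB3 (limma adjusted p = 0.0582). HOXB3 had the smallest p of any HOX gene, and 325 of all tested genes had a smaller one.

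HOXB4, a regulator of blood stem cell growth that lies inside the span of HOXB3, stood at 1690 and 2173 in control and 1103 and 780 in auxin. Its groups did not overlap, and its log2 change of −1.05 ± 0.21 was the lowest of the HOX genes (limma adjusted p = 0.0620). Because the genes share signal, HOXB4 makes up between 11.9% and 16.7% of the HOXB3 value. The remainder of HOXB3, outside HOXB4, stood at 11668 ± 1192 in control and 6582 ± 1902 in auxin (SD, n = 2 per group), 56.4% of control, so the lower HOXB3 value was not carried by HOXB4 alone. HOXB-AS1, HOXB-AS2, HOXB-AS3 and MIR10A also overlap HOXB3.

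Of the genes between HOXB4 and HOXB9, HOXB5 stood at 1569 and 1629 in control and 1208 and 1166 in auxin, the tightest pairs of any HOXB gene. HOXB6 stood at 10801 and 11407 in control and 8946 and 8223 in auxin. HOXB8 stood at 1938 and 2720 against 1862 and 1663. In all 3 the groups were apart, for HOXB8 by a margin smaller than the difference between its controls. The log2 changes were −0.43 ± 0.16 for HOXB5 (limma adjusted p = 0.360), −0.37 ± 0.12 for HOXB6 (limma adjusted p = 0.256) and −0.38 ± 0.19 for HOXB8 (limma adjusted p = 0.544).

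HOXB7, often raised in colorectal tumours, stood at 10524 and 11220 in control and 9925 and 8778 in auxin, a log2 change of −0.22 ± 0.12 (limma adjusted p = 0.630). Between 37.7% and 41.7% of the HOXB7 value lies in HOXB8 and HOXB9, which its span contains, and the remainder was at 88.0% of control. HOXB9 stood at 2083 and 1963 in control and 2057 and 1650 in auxin, and its groups overlapped (−0.13 ± 0.17). HOXB13, a gene of the hindgut and prostate, stood at 255 and 169 against 355 and 213 and also overlapped (0.41 ± 0.30).

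Ratios of one gene to another within a library do not depend on how libraries are scaled. They were chosen after the values above were seen and are given as descriptions; with 2 libraries against 2, an exact permutation test cannot go below p = 0.333. HOXB3 over HOXB7 was 1.35 and 1.16 in the control libraries and 0.910 and 0.686 in the auxin libraries. HOXB4 over HOXB9 was 0.811 and 1.11 in control and 0.536 and 0.473 in auxin. HOXB2 over HOXB9 was 0.133 and 0.152 in control and 0.0941 and 0.0715 in auxin. The anterior genes were thus lower relative to HOXB7 or HOXB9 of the same cluster in both auxin libraries.

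**Figure D4:**
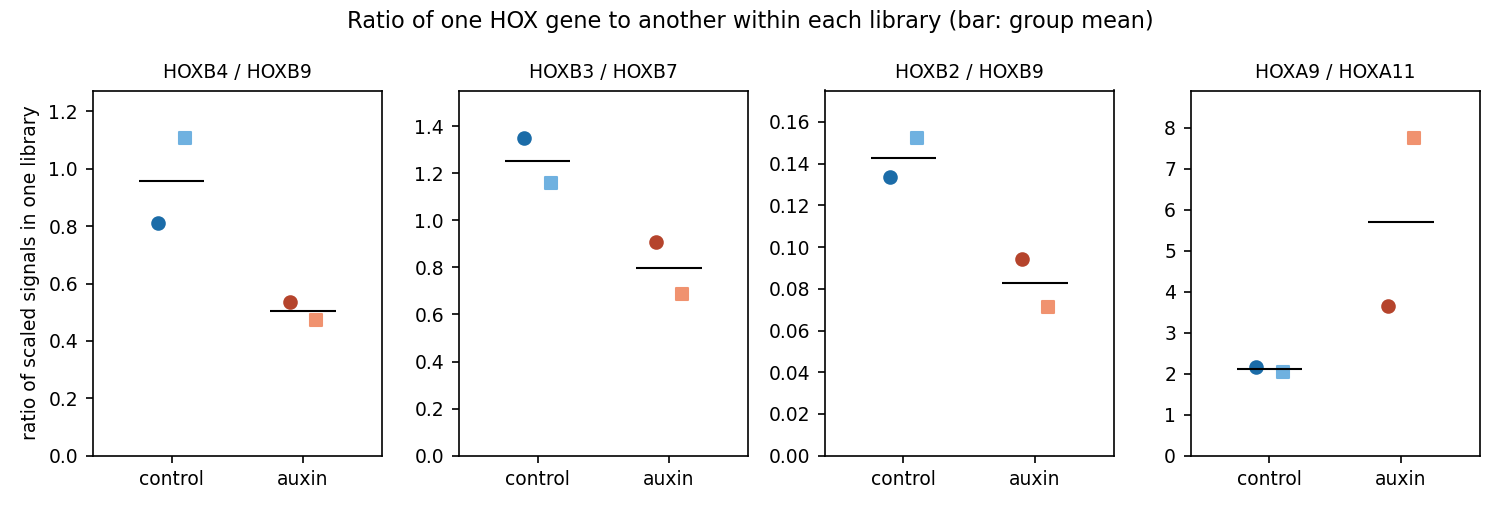
Ratio of the scaled signals of 2 HOX genes within each of the 4 libraries, in one panel per pair, with points for libraries and a bar at each group's mean. The 3 HOXB ratios are lower in both auxin libraries, HOXB4 over HOXB9 having means of 0.959 in control and 0.505 in auxin, and HOXA9 over HOXA11 is higher, with means of 2.11 and 5.70.

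The HOXA genes had log2 changes on both sides of 0. HOXA9 had the highest signal per kb in the cluster. It is a posterior gene that drives self-renewal in leukaemia, and it stood at 1426 and 1037 in control and 1851 and 1556 in auxin. HOXA11, a gene of limb and uterus development, stood at 657 and 508 in control and 506 and 201 in auxin. The groups were apart in both genes, for HOXA11 by 508 against 506 only. The log2 change was 0.48 ± 0.20 for HOXA9 (limma adjusted p = 0.420) and −0.85 ± 0.36 for HOXA11 (limma adjusted p = 0.444). On the log2 scale HOXA9 was at 0.25 without control replicate 2 and 0.72 without control replicate 1, and HOXA11 at −0.19 without auxin replicate 2 and −1.51 without auxin replicate 1. The ratio of HOXA9 to HOXA11 within a library was 2.17 and 2.04 in control and 3.66 and 7.74 in auxin. HOXA10, between these genes, stood at 1258 and 1166 in control and 1250 and 952 in auxin and overlapped (−0.15 ± 0.19).

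HOXA9 and HOXA10 both lie in a longer protein-coding gene, AC004080.3, which stood at 4190 ± 645 in control and 4672 ± 841 in auxin (SD, n = 2 per group). HOXA11 overlaps its antisense RNA, HOXA11-AS, which stood at 351 and 209 in control and 259 and 95.4 in auxin; the pair showed the same low auxin replicate 2.

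HOXA13, the most posterior gene of the cluster, stood at 182 and 119.7 in control and 119.5 and 92.1 in auxin. The groups were just apart, and the log2 change was −0.49 ± 0.30 (limma adjusted p = 0.678). HOXA4 stood at 47.5 and 52.2 in control and 32.1 and 29.2 in auxin, with −0.68 ± 0.37 (limma adjusted p = 0.603). HOXA7, which overlaps no other gene, stood at 300.1 and 391 in control and 385 and 336 in auxin and overlapped (0.07 ± 0.22). HOXA2, HOXA3, HOXA5 and HOXA6 overlapped too, with log2 changes between −0.34 and 0.14. HOXA3 outside HOXA4 stood at 81.2% of control, against 56.4% for HOXB3, its paralogue, outside HOXB4; this difference was not tested.

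No gene of HOXC had separate groups, where 18.6% of all tested genes had both auxin libraries above both controls and 19.6% below. Of the 8 tested, 6 had a log2 change above 0. HOXC9, the highest per kb, stood at 3734 and 2899 in control and 3963 and 3023 in auxin (0.07 ± 0.18). HOXC6, often high in carcinomas, stood at 1662 and 1354 in control and 2271 and 1629 in auxin (0.36 ± 0.20, limma adjusted p = 0.626). HOXC8 stood at 716 and 516 against 726 and 664 (0.19 ± 0.21). The replicate 1 library of each group was the higher one in all 3 genes, and auxin replicate 1 was the highest of the 4 libraries in 6 of the 8. HOXC4 had 0.34 ± 0.20 and its part outside HOXC5 was at 127% of control, but it shares signal with HOXC6. HOXC5, HOXC10, HOXC11 and HOXC13 lay between −0.10 and 0.27. HOXC4 to HOXC6 and HOXC8 to HOXC10 overlap a longer protein-coding gene, AC012531.3, which stood at 7269 ± 1232 in control and 8264 ± 1438 in auxin (SD, n = 2 per group).

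In HOXD only HOXD8 had a mean signal of at least 50. It stood at 217 and 161 in control and 436 and 225 in auxin. The groups were apart by 217 against 225, and the 2 auxin libraries differed far more than that. Its log2 change was 0.74 ± 0.32 (limma adjusted p = 0.451), and 0.27 without auxin replicate 1. HOXD-AS2, which overlaps HOXD8 on the other strand, stood at 393 and 275 against 604 and 321. HOXD4 stood at 23.7 and 24.6 in control and 51.7 and 20.2 in auxin, and HOXD3 at 26.3 and 4.09 against 33.9 and 14.6. Both overlapped, with 0.41 ± 0.51 and 0.98 ± 0.79, and both went below 0 when 1 library was left out.

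The long non-coding RNAs of the clusters share signal with the HOX genes they overlap. None of the 17 tested of 18 listed passed the limma threshold; both auxin libraries were below both controls in 5 and above in 1, against 19.6% and 18.6% of all tested genes, with a median log2 change of −0.05. HOXB-AS3 runs antisense across HOXB3 to HOXB6. It stood at 25375 and 24614 in control and 18086 and 14201 in auxin, with −0.64 ± 0.13 (limma adjusted p = 0.0597). HOXB3, HOXB5 and HOXB6 together came to between 105% and 108% of HOXB-AS3 in every library, so the values cannot be assigned to one strand. HOXB-AS1 stood at 1012 and 960 in control and 728 and 362 in auxin, and HOXB-AS2 at 1059 and 878 against 709 and 389. HOXB-AS4, at the end of HOXB7, stood at 3614 ± 308 and 3487 ± 24 (SD, n = 2 per group). HOTAIR, the HOXC antisense RNA known for binding Polycomb proteins, stood at 77.1 and 76.7 in control and 65.99 and 69.6 in auxin.

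Inside the gap between HOXB9 and HOXB13 lies LINC02086, which stood at 2029 and 2113 in control and 2175 and 2458 in auxin (0.16 ± 0.15). AC103702.2, next to HOXB7, stood at 6094 and 6018 against 5549 and 6168 and overlapped (−0.05 ± 0.13). The HOXB lows therefore did not run through the whole interval between HOXB2 and HOXB13. RPL9P28, a pseudogene inside the span of LINC02086, was lower in auxin, at 50.9 and 58.3 in control and 30.3 and 41.5 in auxin (−0.60 ± 0.37).

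The protein-coding genes nearest the clusters had log2 changes on both sides of 0, and some of them lay far off. Their distances from the cluster ran from 8.81 kb (EVX2) to 1039 kb (NFE2L2), both at HOXD. Of the 24 nearest protein-coding neighbours, 3 on each side of each cluster, 23 were tested and none passed the limma threshold; both auxin libraries were above both controls in 8 and below in 5, against 18.6% and 19.6% of all tested genes, with a median log2 change of 0.01. At HOXB, on the HOXB1 side, SKAP1 had −0.35 ± 0.15, SNX11 0.30 ± 0.14 and CBX1 −0.09 ± 0.12. On the HOXB13 side, TTLL6 had 0.23 ± 0.23, CALCOCO2 0.22 ± 0.15 and ATP5MC1 −0.26 ± 0.15. At HOXA, SKAP2 (0.54 ± 0.19), SNX10 (0.22 ± 0.15) and CBX3 (−0.33 ± 0.15) lay beyond the anterior end of the cluster, and EVX1, HIBADH (−0.39 ± 0.16) and TAX1BP1 (0.20 ± 0.13) beyond HOXA13. EVX1, a homeobox gene, stood at 4.23 and 0 in control and 16.9 and 11.2 in auxin, levels too low for a fold change to be read.

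At HOXC, the neighbours CALCOCO1 (0.25 ± 0.21), ATP5MC2 (−0.15 ± 0.13), ATF7 (0.28 ± 0.13), SMUG1 (0.03 ± 0.15), CBX5 (−0.20 ± 0.17) and HNRNPA1 (−0.06 ± 0.16) had log2 changes on both sides of 0. At HOXD, LNPK (−0.06 ± 0.15), ATP5MC3 (0.01 ± 0.15), MTX2 (−0.07 ± 0.14) and HNRNPA3 (−0.11 ± 0.15) were near 0, EVX2 was too low to be tested, and NFE2L2 had the smallest p of all neighbours, at 0.42 ± 0.11 (limma adjusted p = 0.167).

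Among genes that act on or with HOX genes, 2 passed the threshold, and neither did so on the deposited scale. Of 28 Polycomb genes, all tested, 1 fell and none rose: JARID2, which guides the Polycomb repressive complex that methylates H3K27, stood at 36917 and 30522 in control and 12147 and 12211 in auxin, a log2 change of −1.46 ± 0.12 (limma adjusted p = 0.000903). Both auxin libraries were below both controls in 16 of the 28 and above in 5, against 19.6% and 18.6% of all tested genes, with a median of −0.21. EZH2, the methylating subunit, had −0.65 ± 0.20 (limma adjusted p = 0.231), and SUZ12 and EED, its core partners, −0.30 ± 0.12 and −0.34 ± 0.15. Of the 15 tested of 16 retinoic acid genes, 1 fell: ALDH1A3, an enzyme that makes retinoic acid, stood at 42669 and 47984 in control and 22195 and 17977 in auxin, with −1.18 ± 0.12 (limma adjusted p = 0.00226). The receptor gene RARG had 0.47 ± 0.14 and RARA 0.26 ± 0.12, neither past the threshold, and the list's median was 0.07. How these genes bear on the HOX values was not tested.

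None of the 9 TALE cofactor genes passed (median 0.15). MEIS3, with the smallest p, stood at 1326 and 1414 in control and 1896 and 2199 in auxin (0.58 ± 0.16, limma adjusted p = 0.190), while PBX3 (−0.53 ± 0.17) and MEIS2 (−0.47 ± 0.15) were lower in both auxin libraries than in both controls. A list of 19 genes held Trithorax genes, H3K27 demethylases and others (DOT1L, PSIP1, MLLT1, MLLT3, AFF1 and AFF4), and none passed (median −0.03). MLLT3 had its smallest p (0.58 ± 0.20), at 445 ± 5 in control and 669 ± 81 in auxin (SD, n = 2 per group). KMT2A, the H3K4 methyltransferase known to sustain HOX transcription, had −0.03 ± 0.13. Among 7 loop anchor and insulator genes none passed (median −0.18): VEZF1 had −0.61 ± 0.15 (limma adjusted p = 0.129) and CTCF 0.15 ± 0.11. Of 8 ParaHox, EVX and CDX genes, 4 were tested and none passed (median 0.12). CDX2, an intestinal regulator of HOX genes, stood at 1782 and 1211 in control and 2195 and 1771 in auxin and overlapped.

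**Figure D5:**
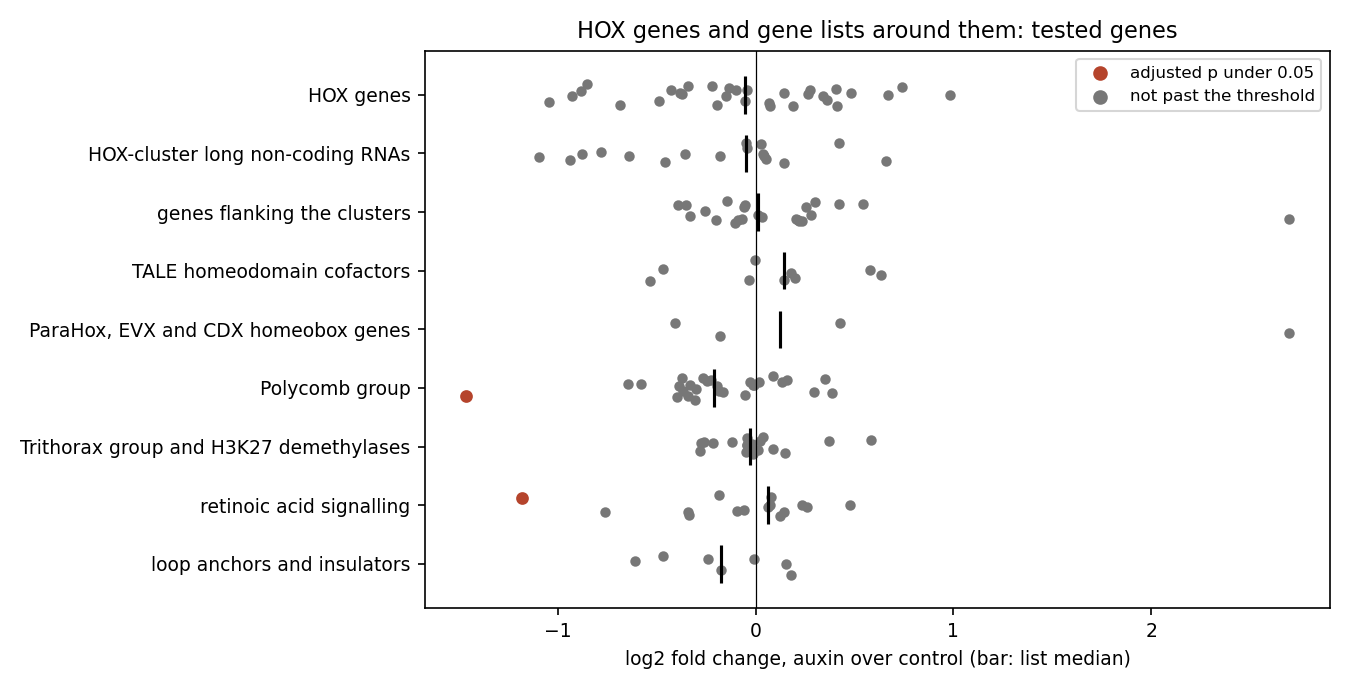
Log2 fold change of auxin over control for the tested genes of each list, one row per list, with a bar at the list's median; the HOX genes are in the top row. List medians lie between −0.21 (Polycomb) and 0.15 (TALE cofactors), and JARID2 (−1.46) and ALDH1A3 (−1.18) are the genes that passed the threshold.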

How the data were processed

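EU-labelled nascent RNA of 2 control and 2 auxin libraries was analysed; per the labels' protocols, 200 µg of rRNA-depleted human RNA was mixed with 20 µg of fly S2 mRNA, and the library kit was directional. The authors deposited 1 table with a scaled signal per gene, and how it was counted and scaled is not given in the sources used here. The submitters' processing notes name Trimmomatic 0.39, Bowtie2 2.4.5, deepTools 3.5.1, hg38 and dm6. All 39 HOX genes lay on their RefSeq gene of the same name. Gene starts in the table count from 0 and are printed 1 higher. One misspelt control column was taken as control replicate 2 from its number.

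The low values of each library all fell on a grid whose spacing (step) was 0.847 and 1.04 in the control and 0.727 and 1.36 in the auxin libraries. Genes of at least 10 kb lay at 2 or 3 steps in 305 to 433 cases and at 1 step in 2 to 8, so steps were not taken as reads, no count test was run, and depth in reads is unknown; precision rests on the replicate spread.

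Genes were kept (39464) that summed to 15 or more and, scaled to the median library total, reached 10 in 2 or more libraries. Libraries were divided by 0.999, 1.01, 0.816 and 1.21 (trimmed mean of log ratios, 30% of ratios and 5% of levels trimmed), and log2(signal + 1) was tested with limma 3.58.1 (R 4.3.3; lmFit, eBayes with trend), with Benjamini-Hochberg adjustment over all genes at 0.05. Fold changes on this scale understate changes of low genes. The script was tested on simulated data.

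Described in full were HOX genes that were called, were among the 3 highest per kb in their cluster, or had separate groups and a mean of at least 50; of each list, genes called and the smallest p; and 3 neighbours a side. Values of 1 HOX gene are not reported here. The other genes named were chosen after their values were seen. Members and lists were chosen with earlier results of these data known. Alternatives covered scaling, filter, pseudocount (0.1 and 10), a replicate block and leaving out each library.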

Additional observations from a re-analysis of the deposited data

How the results depend on the processing

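No HOX gene passed the threshold under other scalings (median ratios, library totals or the deposited scale), other filters or a pseudocount of 0.1. With a pseudocount of 10 there were 2 (HOXB3, limma adjusted p = 0.0477, and HOXB4, 0.04996). These 2 share signal, and that setting called 144 of all genes higher and 179 lower. On the deposited scale 55 of all genes were called in place of 289, and 0 Polycomb and 0 retinoic acid genes. With no filter the microRNA median was 0.045. With the replicate number as a block, 4273 of all genes (1944 higher, 2329 lower) and 11 HOX genes were called: HOXA9, HOXC4, HOXC6 and HOXD8 higher, and HOXA11, HOXB2 to HOXB6 and HOXB8 lower. In the lists the replicate block called 4 of 17 tested long non-coding RNAs, 3 of 9 TALE and 1 of 4 ParaHox genes. Further calls were 12 of 28 Polycomb genes, 2 of the 19 in the Trithorax list and 3 of 15 retinoic acid genes. The block also called 2 of 7 loop anchor and 6 of 23 neighbouring genes, against 4273 of 39464 over all genes. That fit took each gene's variance wholly from the trend over all genes, unlike the main fit. The fits on the deposited scale, without auxin replicate 1 and without auxin replicate 2 did so too. The labels do not say that a number marks a shared culture or day. The replicate differences of the groups correlated at r = 0.231 across all tested genes, 0.462 across those with a mean of at least 50 and 0.513 across the 31 tested HOX genes, which are not independent replicates, and there are only 2 pairs, so the block is not the reported result.

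Leaving out each library, with a lone library assumed to vary like the other group, gave 132 to 681 calls over all genes, 0 to 4 HOX genes, 0 to 4 long non-coding RNAs and 1 to 2 Polycomb genes. The HOXD summed log2 ratio ranged from 0.18 to 1.12. List medians ranged from −0.30 to 0.048 (microRNAs), −0.10 to 0.71 (ParaHox) and −0.16 to 0.052 (loop anchors). Log2 changes that crossed 0 ranged from −0.34 to 0.045 (HOXA10), −0.11 to 0.26 (HOXA7), −0.046 to 0.44 (HOXC8), −0.11 to 0.27 (HOXC9), −0.23 to 2.20 (HOXD3) and −0.24 to 1.07 (HOXD4). HOXB2 to HOXB8, HOXA9, HOXA11, HOXA13, HOXC6 and HOXD8 kept their direction under every alternative run. Several moved by over 1.5 times from their value in the main fit. Of these, HOXA11 ranged from −1.51 to −0.19, HOXA13 from −0.79 to −0.18, HOXA9 from 0.25 to 0.72 and HOXB2 from −1.28 to −0.57. The others were HOXB7 (−0.30 to −0.13), HOXB8 (−0.62 to −0.14), HOXC6 (0.13 to 0.60) and HOXD8 (0.27 to 1.22). With each library left out in turn, HOXB3 ranged from −1.17 to −0.59 and HOXB4 from −1.29 to −0.80. The HOXB median and summed ratio stayed below 0 and those of HOXC and HOXD above 0, while those of HOXA and the median of all HOX genes took both signs. The cause of these changes was not tested. With 2 libraries per group, differences smaller than the spread within a group could not be resolved, and depth in reads is unknown.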
